A study of Mus musculus with 6 samples.

Results

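The 10 genes Tgfb1, Tgfb2, Tgfb3, Tgfbr1, Tgfbr2, Tgfbr3, Eng, Tgfbi, Ltbp1 and Smad7 cover the ligands of transforming growth factor beta (TGF-beta), their receptors and co-receptors, a latency protein, an inhibitor and a matrix protein named for its induction by TGF-beta. They were taken by symbol from a table of 34724 genes, and all 10 were found. Native RNA molecules from 2 mouse cell lines were sequenced on an Oxford Nanopore instrument without a cDNA copy, with 3 libraries for each line. The line 2H-11 is labelled tumor endothelial, and the line SVEC4-10 is labelled normal endothelial. Both are SV40-transformed lines from the axillary lymph node of adult C3H/HeJ mice, and no treatment is given for either. The question is how the transcripts of the 2 lines differ. With 1 line per label, origin and line cannot be told apart. The labels do not say whether the 3 libraries of a line are separate cultures, and the p-values then cover only the spread among libraries, which may be technical.

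TGF-beta is secreted as a latent complex, in which the ligand stays wrapped in its own propeptide and is tied to the matrix by a latent TGF-beta binding protein. Integrins and proteases release it, and it then binds a type II receptor, which recruits and activates a type I receptor. The type I receptor phosphorylates Smad2 and Smad3, which enter the nucleus with Smad4, while Smad7 blocks the receptor. In vessels the pathway is known for its part in growth and wall formation, and its co-receptor endoglin is abundant on endothelial cells.

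Total counted reads were between 4105369 and 5825968 in the 2H-11 libraries and between 3628400 and 16798666 in the SVEC4-10 libraries. Levels are given as counts scaled to 1000000 counted reads of the library (CPM). Of 14 endothelial marker genes, 11 were under 1 CPM in all 6 libraries. The markers Vwf, Tie1, Cldn5, Erg, Emcn, Icam2 and Sox17 had no count, and those with counts were led by Ecscr and Egfl7 in 2H-11. The summed level of the endothelial list was 50.9 to 62.7 CPM in 2H-11 and 2.10 to 3.27 CPM in SVEC4-10. Most of the 2H-11 sum was Ecscr, at 47.7 ± 6.33 CPM in the 2H-11 libraries and 0.0919 ± 0.159 CPM in the SVEC4-10 libraries. Flt1 (1.68 ± 0.714 CPM in 2H-11, 1.25 ± 0.740 CPM in SVEC4-10) and Kdr overlapped between the lines. The 11 mesothelial markers summed to 58.5 to 72.9 CPM in 2H-11 and 3421 to 4332 CPM in SVEC4-10, and the 10 fibroblast and mural markers to 156 to 190.3 CPM in 2H-11 and 7.72 to 9.58 CPM in SVEC4-10. Most of the mesothelial sum in SVEC4-10 came from Upk1b, Upk3b and Msln, and Krt19 of the same list went the other way, with 22.0 ± 7.08 CPM in the 2H-11 libraries and 0.196 ± 0.243 CPM in the SVEC4-10 libraries. The 7 macrophage markers summed to 19.5 to 24.2 CPM in 2H-11 and 10.6 to 16.6 CPM in SVEC4-10, with Adgre1 at 0 in all libraries. These lists differ between the lines together with the genes below, and their part in the results was not tested. In RNA of whole cultures, fewer cells with a transcript and fewer copies per cell cannot be told apart.

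Promoter windows of Tgfbi, Ltbp1 and Tgfb2 are shown because these genes were called in opposite directions between the lines. RefSeq windows on GRCm38.p6 were used for 7 of the 10 genes, in 9 windows. Each was 300 bases long, from 250 before to 50 after an annotated start. Tgfbi, at chr13:56609336-56609635 on the plus strand, and Ltbp1, with starts at chr17:75005279-75005578 and chr17:75178531-75178830 on the plus strand, were higher in 2H-11. Tgfb2, at chr1:186705940-186706239 on the minus strand, was lower in 2H-11. Capitals mark CAGAC or its reverse complement GTCTG, the short core bound by Smad proteins.
Tgfbi: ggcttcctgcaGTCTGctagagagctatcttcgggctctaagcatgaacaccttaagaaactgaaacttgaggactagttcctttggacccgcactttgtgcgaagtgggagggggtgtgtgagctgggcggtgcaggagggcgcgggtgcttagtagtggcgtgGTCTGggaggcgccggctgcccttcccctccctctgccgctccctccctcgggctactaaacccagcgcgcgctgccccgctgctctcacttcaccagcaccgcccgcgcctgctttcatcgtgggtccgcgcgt
Ltbp1, upstream start: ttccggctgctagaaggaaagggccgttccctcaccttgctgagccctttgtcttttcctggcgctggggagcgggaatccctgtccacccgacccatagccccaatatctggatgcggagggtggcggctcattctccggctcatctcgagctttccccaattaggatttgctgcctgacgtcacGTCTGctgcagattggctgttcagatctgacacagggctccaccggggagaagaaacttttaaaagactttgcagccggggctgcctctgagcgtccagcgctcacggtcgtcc
Ltbp1, downstream start: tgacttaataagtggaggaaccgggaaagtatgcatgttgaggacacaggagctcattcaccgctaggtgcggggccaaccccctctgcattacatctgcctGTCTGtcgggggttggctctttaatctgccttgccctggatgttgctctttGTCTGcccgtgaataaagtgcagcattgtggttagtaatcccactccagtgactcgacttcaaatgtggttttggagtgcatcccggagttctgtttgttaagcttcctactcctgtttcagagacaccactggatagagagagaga
Tgfb2: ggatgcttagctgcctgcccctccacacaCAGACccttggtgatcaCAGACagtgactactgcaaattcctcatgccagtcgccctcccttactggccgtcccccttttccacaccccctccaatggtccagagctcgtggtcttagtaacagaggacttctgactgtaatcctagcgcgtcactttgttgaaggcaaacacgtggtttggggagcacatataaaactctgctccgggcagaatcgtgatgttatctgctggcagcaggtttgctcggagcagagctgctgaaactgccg

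The core CAGAC, searched on both strands, was present in each of these 4 windows. Tgfbi, the downstream Ltbp1 start and Tgfb2 had 2 matches each, and the upstream Ltbp1 start had 1. Counting from 1 at the 5′ end of the window, the matches lay at positions 12 and 166 in Tgfbi and at 30 and 47 in Tgfb2. The windows of Eng (2 matches), Tgfbr2 (1 match) and the second Tgfbr1 start (1 match) also held the core, and those of Tgfb1 and the first Tgfbr1 start did not. The core is common, and 49.6% of all 32851 promoter windows in the table held it. The full palindrome GTCTAGAC (0.213% of all windows), the AP-1 motif TGANTCA (7.81%) and the Snail-type E-box CACCTG, searched with CAGGTG (20.2%), were in none of the 9 windows. Smad7 is not among these windows. With CAGAC the only motif found, no match there overlapped another motif. A match is a run of letters, and none of these data measure binding there. The table of counts is per gene, so which Ltbp1 start the reads came from is not known.

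Of the 10 genes, 9 had enough counts to be tested. In 2H-11, Tgfbi, Ltbp1 and Eng rose and Tgfb3, Tgfb2 and Tgfbr2 fell, while Tgfbr1, Tgfbr3 and Smad7 did not pass the test and Tgfb1 was close to 0 in both lines. The test was edgeR's quasi-likelihood test on counts over all 13187 genes with enough reads, with a Benjamini-Hochberg adjusted p under 0.05 as threshold. Over all genes tested 36.2% passed, 20.1% as higher and 16.2% as lower in 2H-11. The 6 genes that passed were also those whose libraries did not overlap between the lines in CPM, which held for 46.8% of all genes tested. The median log2 fold change of the 9 genes was -0.19, also with Tgfbi set at its bound, beside 0.0025 over all genes tested.

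**Figure D1:**
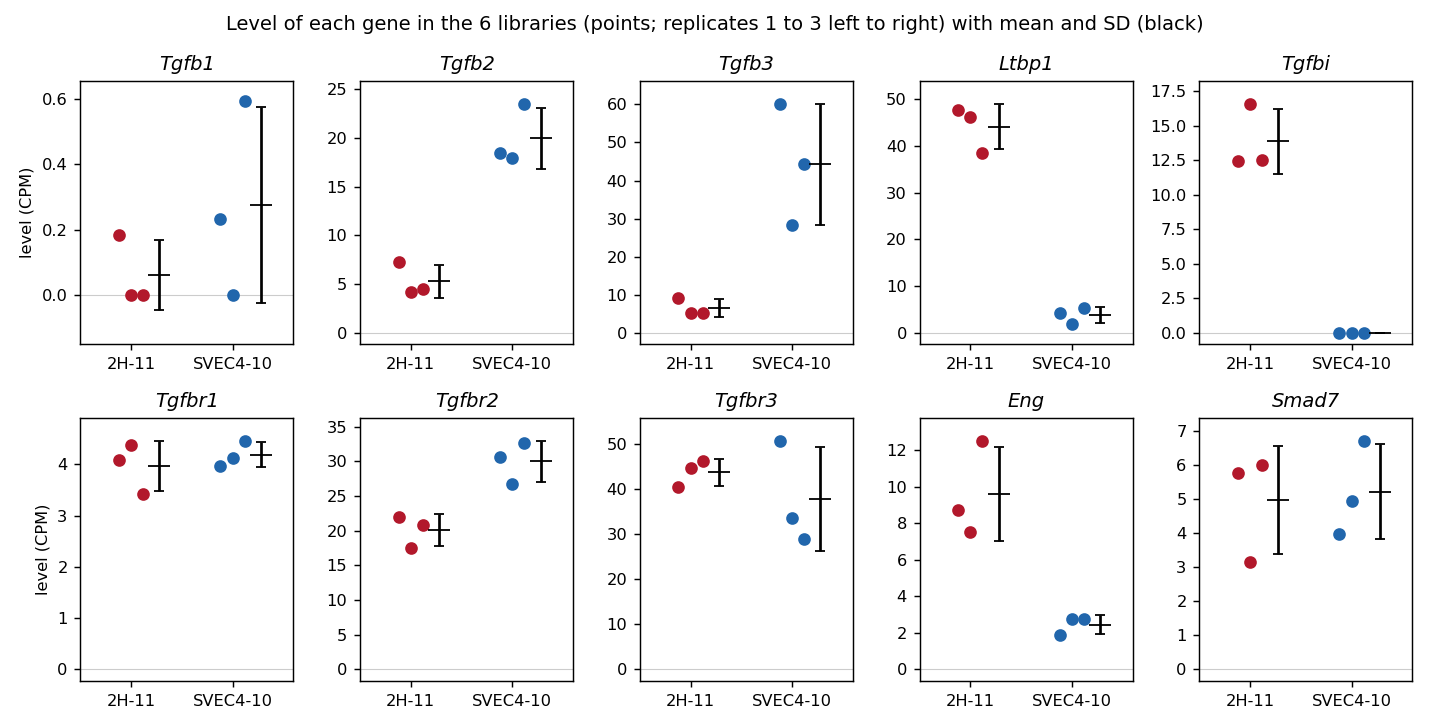
Level in CPM of the 10 genes (vertical axis, linear, a separate scale per panel) in the 3 libraries of 2H-11 (red) and of SVEC4-10 (blue); points are libraries and black bars the mean and SD of 3 libraries. The panels of Tgfb2, Tgfb3 and Tgfbr2 show every 2H-11 library below every SVEC4-10 library, those of Ltbp1, Tgfbi and Eng show the opposite, and the other 4 panels overlap.

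The ligands fell in 2H-11 where they could be tested. Tgfb3, a ligand best known for palate and lung development (ENSMUSG00000021253, GRCm38 chromosome 12, 86056745 to 86079041), stood at 9.12, 5.12 and 5.15 CPM in 2H-11 and at 60.1, 28.4 and 44.4 CPM in SVEC4-10. All 3 libraries of 2H-11 were below the lowest of SVEC4-10, although the SVEC4-10 libraries themselves were widely spread. The log2 fold change was -2.85 (SE 0.29, 95% interval -3.46 to -2.24, edgeR adjusted p = 3.29e-07). Tgfb3 overlaps Ttll5 on the opposite strand, which was at 3.86 ± 1.19 CPM in the 2H-11 libraries and 4.76 ± 0.567 CPM in the SVEC4-10 libraries (SD, n = 3 each). Whether the authors counted by strand is not given, so whether reads of such a pair were kept apart in the counts is not known.

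Tgfb2, a ligand with a strong need for a co-receptor (ENSMUSG00000039239, chromosome 1, 186622792 to 186705989), was at 7.26, 4.14 and 4.46 CPM in 2H-11 and at 18.5, 17.9 and 23.5 CPM in SVEC4-10. The libraries of the lines did not overlap, and those of SVEC4-10 were close to each other. The log2 fold change was -2.02 (SE 0.28, 95% interval -2.61 to -1.42, edgeR adjusted p = 1.49e-05).

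Tgfb1, the ligand most often measured in blood and in tumors (ENSMUSG00000002603, chromosome 7, 25687002 to 25705077), was nearly uncounted. It had 1, 0 and 0 counts in 2H-11 and 1, 0 and 10 counts in SVEC4-10. The 10 counts lay in the deepest library, where they amount to 0.595 CPM. Summed over a line and divided by its total, the ratio of SVEC4-10 over 2H-11 was 6.82, with an exact 95% counting interval of 0.991 to 293.3, which includes 1. Without SVEC4-10 replicate 1 the interval was 1.07 to 325.2 and without replicate 2 it was 1.16 to 343.8, while without replicate 3 that line had 1 count left and no ratio was formed. The 12 counts therefore do not settle whether the lines differ in Tgfb1. Reads counted under the authors' own identifiers, written ONT and a number, made up 6.89 to 9.39% of the counts in 2H-11 and 6.48 to 7.49% in SVEC4-10. These identifiers come without coordinates, so whether any of those reads lie at the Tgfb1 locus was not tested.

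The share of Tgfb3 among the ligand counts was lower in each 2H-11 library than in each SVEC4-10 library, but 3 against 3 libraries cannot pass the threshold. Of the counts of the 3 ligands together, Tgfb3 held 55.1%, 55.3% and 53.6% in 2H-11 (of 89, 38 and 56 counts) and 76.3%, 61.3% and 64.8% in SVEC4-10 (of 337, 168 and 1151 counts). The mean was 54.6 ± 0.923% in 2H-11 and 67.5 ± 7.82% in SVEC4-10 (SD, n = 3 each), a difference of -12.8 percentage points. The groups did not overlap, but the 2-sided exact permutation test gave p = 0.1, the smallest that 3 against 3 libraries allow. The Wilson 95% interval of the 2H-11 share was 44.7 to 65.0% in replicate 1, 39.7 to 69.9% in replicate 2 and 40.7 to 66.0% in replicate 3. Intervals and limits of this kind cover counting error only. Tgfb2 took most of the rest, with 45.0 ± 1.32% in 2H-11 and 32.2 ± 7.85% in SVEC4-10, and Tgfb1 averaged 0.375% in 2H-11 and 0.389% in SVEC4-10. The difference for Tgfb1, -0.014 percentage points, had a 2-sided exact permutation p of 1.

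**Figure D2:**
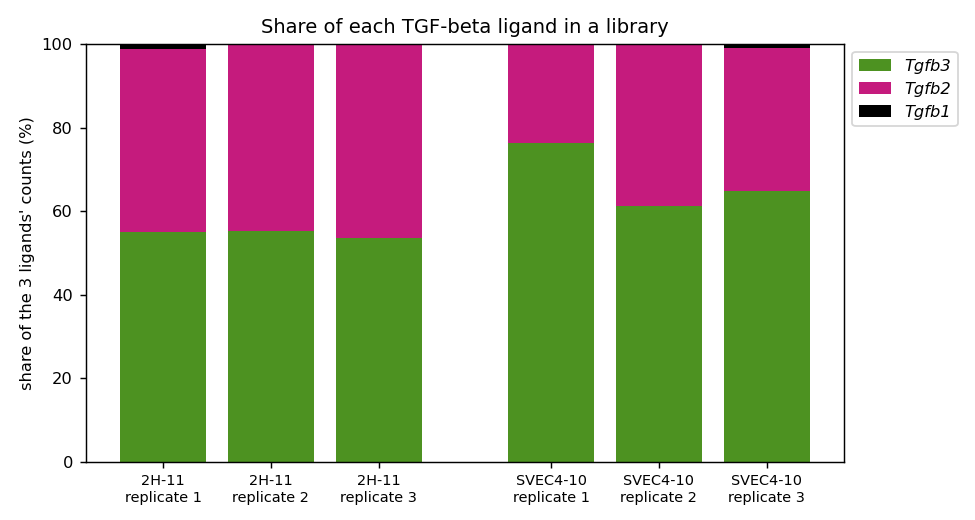
Share of Tgfb3 (green), Tgfb2 (magenta) and Tgfb1 (black) in the summed counts of the 3 ligands (vertical axis, %), with a bar for each library, 2H-11 on the left and SVEC4-10 on the right. The Tgfb3 share lies between 53.6 and 55.3% in 2H-11 and between 61.3 and 76.3% in SVEC4-10.

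The latency protein and the matrix protein had the largest fold changes of the 9 genes tested. Ltbp1, which binds the latent complex to microfibrils (ENSMUSG00000001870, chromosome 17, 75005568 to 75392512), was at 47.6, 46.3 and 38.6 CPM in 2H-11 and at 4.21, 1.93 and 5.24 CPM in SVEC4-10. Every 2H-11 library was far above every SVEC4-10 library. The difference was 9.96-fold (log2 fold change 3.32, SE 0.28, 95% interval 2.73 to 3.90, edgeR adjusted p = 2.75e-08).

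Tgfbi, a secreted protein that binds collagens and integrins (ENSMUSG00000035493, chromosome 13, 56609523 to 56639562), was at 12.5, 16.6 and 12.5 CPM in 2H-11 and uncounted in every SVEC4-10 library. A count of 0 over the 3 SVEC4-10 libraries allows a level of up to 0.121 CPM, taken as 3 counts over their total. Tgfbi was thus at least 114-fold higher in 2H-11 (edgeR adjusted p = 1.74e-08). Without SVEC4-10 replicate 3, the deepest library, the bound was 36.5-fold.

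Of the receptors and co-receptors, Eng rose and Tgfbr2 fell in 2H-11, and Tgfbr1 and Tgfbr3 did not pass. Tgfbr2, the type II receptor that binds the ligand (ENSMUSG00000032440, chromosome 9, 116084293 to 116175360), was at 22.0, 17.5 and 20.8 CPM in 2H-11 and at 30.6, 26.7 and 32.6 CPM in SVEC4-10. The ranges did not overlap, and the gap between them was small. The log2 fold change was -0.67 (SE 0.21, 95% interval -1.12 to -0.23, edgeR adjusted p = 0.0178). The call was lost without 2H-11 replicate 2 (adjusted p = 0.115) and without SVEC4-10 replicate 3 (adjusted p = 0.0550), the range over all alternatives being 0.0118 to 0.115.

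Tgfbr1, the type I receptor kinase (ENSMUSG00000007613, chromosome 4, 47353222 to 47414931), was at 4.09, 4.38 and 3.43 CPM in 2H-11 and at 3.97, 4.13 and 4.46 CPM in SVEC4-10. These values overlapped. Its log2 fold change was -0.19 with a 95% interval of -0.90 to 0.51, and the gene did not pass (edgeR adjusted p = 0.697). Its counts were low, at 15 to 75 per library.

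Of the co-receptors, Eng passed the test and Tgfbr3 did not, and the difference between their changes was not tested. Tgfbr3, betaglycan, which presents Tgfb2 to the type II receptor (ENSMUSG00000029287, chromosome 5, 107106570 to 107289629), was at 40.4, 44.6 and 46.2 CPM in 2H-11 and at 50.7, 33.6 and 29.0 CPM in SVEC4-10. The lines overlapped, with SVEC4-10 replicate 1 the highest of all 6 libraries. The log2 fold change was 0.14, with a 95% interval of -0.32 to 0.60 (edgeR adjusted p = 0.661), and its sign turned without SVEC4-10 replicate 3, where it was -0.076.

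Eng, endoglin, the co-receptor of endothelial cells (ENSMUSG00000026814, chromosome 2, 32646595 to 32682669), was at 8.74, 7.55 and 12.5 CPM in 2H-11 and at 1.87, 2.76 and 2.74 CPM in SVEC4-10. All 2H-11 libraries were above all SVEC4-10 libraries. The log2 fold change was 1.85 (SE 0.35, 95% interval 1.12 to 2.58, edgeR adjusted p = 0.000343). Eng overlaps Fpgs on the opposite strand, which was at 39.7 ± 0.882 CPM in the 2H-11 libraries and 33.0 ± 6.31 CPM in the SVEC4-10 libraries. Acvrl1, the type I receptor that pairs with endoglin in endothelium, had 12, 1 and 13 counts in 2H-11 and none in SVEC4-10, which is at least 12.9-fold higher (4.14-fold without SVEC4-10 replicate 3). It did not have enough counts for the test, but entered it and was called higher without 2H-11 replicate 2, SVEC4-10 replicate 1 or SVEC4-10 replicate 2.

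Smad7, the inhibitor that TGF-beta induces against itself (ENSMUSG00000025880, chromosome 18, 75367529 to 75395935), was at 5.77, 3.17 and 6.01 CPM in 2H-11 and at 3.97, 4.96 and 6.73 CPM in SVEC4-10. The libraries of the lines were interleaved. Smad7 had a log2 fold change of -0.19, with a 95% interval of -0.93 to 0.54 (edgeR adjusted p = 0.711). Its sign turned without 2H-11 replicate 2 and without SVEC4-10 replicate 3.

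**Figure D3:**
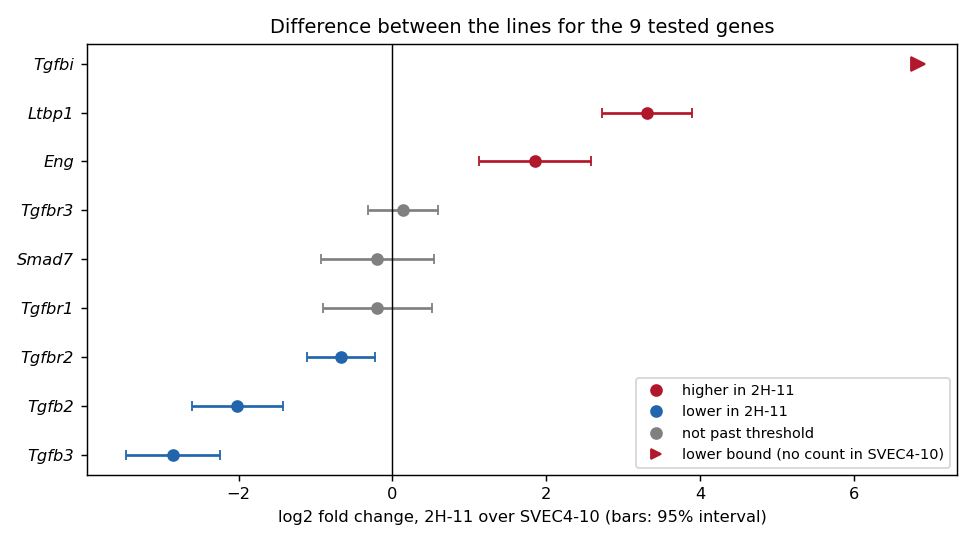
Log2 fold change of 2H-11 over SVEC4-10 (horizontal axis) for the 9 genes tested, ordered by value, with bars for the 95% interval of the edgeR fit; red is higher, blue lower, and grey not past the threshold. Tgfbi is drawn at its lower bound, and the intervals of Tgfbr3, Smad7 and Tgfbr1 cross 0.

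The order of the genes by level was also different between the lines. Each read of a direct RNA library stands for an RNA molecule, so CPM compare genes without division by length. As a second scale, the CPM were divided by the length of the longest coding transcript in kb, which lowers genes with long transcripts. On that scale the highest levels in 2H-11 were those of Tgfbr3 (7.18 ± 0.492 CPM per kb), Ltbp1 (6.62 ± 0.728) and Tgfbi (5.10 ± 0.865), and Ltbp1 lay within the spread of each of the others. Eng, Tgfbr2, Tgfb3, Smad7, Tgfb2 and Tgfbr1 followed, each within the SD of its neighbour in that order, and Tgfb1 was last and apart. In SVEC4-10, Tgfb3 was first at 13.1 ± 4.68 CPM per kb and apart from Tgfbr3 at 6.21 ± 1.88. Tgfb2 (3.90 ± 0.603) and Tgfbr2 (3.71 ± 0.370) came next, and neither Tgfbr3 and Tgfb2 nor Tgfb2 and Tgfbr2 differed beyond their spread. Smad7 at 1.22 ± 0.326 was apart from these and from Tgfbr1, Eng and Ltbp1 below it, which were within each other's spread at 0.728, 0.717 and 0.568 CPM per kb. Tgfb1 and Tgfbi were last. The order depends on the division by length. In CPM, Tgfbr2 (20.1 ± 2.29) stood above Tgfbi (13.9 ± 2.35) in 2H-11. Likewise in CPM, Tgfb3 (44.3 ± 15.8) and Tgfbr3 (37.8 ± 11.4) were within each other's spread in SVEC4-10.

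By a measure of likeness, the genes nearest to Ltbp1 and to Tgfb3 were looked up among 9903 tested genes with Ensembl identifiers and established symbols. The measure was the root mean square distance of log2(CPM + 0.5), centred on each gene's mean, over the 6 libraries. Nearest to Ltbp1 were Galnt18 (distance 0.16), Sirpa (0.19) and Tgm2 (0.19). Galnt18 was at 7.80 ± 2.19 CPM in the 2H-11 libraries and 0.354 ± 0.313 CPM in the SVEC4-10 libraries. The latter mean is under the added 0.5, which shrinks the difference between the lines. Sirpa, a receptor for CD47, was at 29.7 ± 3.24 CPM in the 2H-11 libraries and 3.21 ± 1.43 CPM in the SVEC4-10 libraries. Nearest to Tgfb3 were Cyp2s1 (0.17), Nid2 (0.21) and Ccdc85c (0.21). The same holds for Cyp2s1, at 0.386 ± 0.312 CPM in the 2H-11 libraries and 4.93 ± 1.89 CPM in the SVEC4-10 libraries. Nid2, a basement membrane nidogen, was at 6.21 ± 2.11 CPM in the 2H-11 libraries and 36.8 ± 18.9 CPM in the SVEC4-10 libraries, and Ccdc85c was at 0.825 ± 0.425 CPM in the 2H-11 libraries and 6.77 ± 1.84 CPM in the SVEC4-10 libraries. With 6 libraries in 2 lines, such a distance reflects mostly the difference between the lines.

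Other genes of the pathway were counted in 5 lists by role, 62 genes in all, of which 53 were tested. Among these, 15 were higher and 8 lower in 2H-11, together 43.4%, beside 36.2% of all genes tested.

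The latency list, which also took in microfibril genes, held 7 genes, and 5 of them were tested. Of these, 2 were higher, 1 lower and 2 not past the threshold (median log2 fold change 0.17, beside 0.0025 over all genes tested). The share called of the list was 60.0%, beside 36.2% of all genes tested. Ltbp2, which sits on elastic microfibrils, was at 6.33, 4.38 and 5.32 CPM in 2H-11, while no SVEC4-10 library held a count, at least 44.0-fold higher (edgeR adjusted p = 6.77e-07). Lrrc32, known as GARP, which holds latent TGF-beta on the cell surface, was at 4.09, 4.38 and 3.26 CPM in 2H-11, while no SVEC4-10 library held a count, at least 32.2-fold higher (adjusted p = 1.7e-06). Without SVEC4-10 replicate 3 these bounds were 14.1-fold and 10.3-fold. Both genes went the way of Ltbp1.

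Ltbp4, the fourth binding protein, was lower in 2H-11, at 2.42, 0.731 and 1.72 CPM, against 9.35, 1.93 and 4.76 CPM in SVEC4-10 (log2 fold change -1.74, edgeR adjusted p = 0.0103). Its libraries overlapped between the lines, and without SVEC4-10 replicate 1 the call was lost (adjusted p = 0.0559). Ltbp3 did not pass, at 11.7 ± 1.12 CPM in the 2H-11 libraries and 12.5 ± 6.48 CPM in the SVEC4-10 libraries (adjusted p = 0.672). Fbn1, the microfibril protein that anchors latent complexes and the most abundant of the list, was at 51.3 ± 7.90 CPM in the 2H-11 libraries and 42.5 ± 9.20 CPM in the SVEC4-10 libraries (adjusted p = 0.556). Nrros, the surface anchor of macrophages and microglia, had no count in any library.

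Among 13 activators of latent TGF-beta, 9 were tested, with 3 higher and 0 lower in 2H-11 (median log2 fold change 0.45). The share called was 33.3%, near the 36.2% of all genes tested, of which 16.2% were called lower. No activator was lower at an unadjusted p under 0.05 either, and DESeq2 also called 0 lower. Mmp2, gelatinase A, was at 37.4, 35.1 and 31.2 CPM in 2H-11 and at 1.40, 0.276 and 0.655 CPM in SVEC4-10 (log2 fold change 5.41, edgeR adjusted p = 7.77e-10). Itgb5, an integrin chain that pairs with the alpha V chain, was at 15.1, 14.6 and 28.5 CPM in 2H-11 and at 4.44, 2.76 and 4.58 CPM in SVEC4-10 (log2 fold change 2.17, adjusted p = 3.53e-05). Plau, urokinase, was at 8.47 ± 0.995 CPM in the 2H-11 libraries and 3.01 ± 0.982 CPM in the SVEC4-10 libraries (log2 fold change 1.48, adjusted p = 0.00235). Itgb1, the most abundant, was at 205.7 ± 27.0 CPM in the 2H-11 libraries and 176 ± 19.4 CPM in the SVEC4-10 libraries and did not pass (adjusted p = 0.612).

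The activating integrin chains Itgb3, Itgb6 and Itgb8 were scarce. Itgb3 had 11, 9 and 17 counts in 2H-11 and 3, 2 and 11 counts in SVEC4-10, or 2.39 ± 0.467 CPM in the 2H-11 libraries and 0.636 ± 0.0768 CPM in the SVEC4-10 libraries. Its libraries did not overlap in CPM, and it was called higher without 2H-11 replicate 2, SVEC4-10 replicate 1 or SVEC4-10 replicate 2, where it had enough counts. Itgb6 had 1 count in all libraries together. Itgb8 had no count in 2H-11 and 5, 0 and 15 counts in SVEC4-10, at least 3.51-fold lower in 2H-11. Leaving out 2H-11 replicate 1 or 3, or SVEC4-10 replicate 1, brought that bound to 2.27, 2.17 and 2.28, and leaving out SVEC4-10 replicate 2 brought it to 5.26. None of the 3 genes had enough counts for the test on all libraries.

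The list of 10 signal carriers held genes below the receptors and also the receptor Acvrl1, which was not tested. Of the 9 tested, 1 was higher and 0 lower (median log2 fold change 0.086), 11.1% called beside 36.2% of all genes tested. The higher gene was Smad4, the shared partner of the receptor-activated Smads, at 14.3, 12.4 and 15.3 CPM in 2H-11 and at 5.84, 8.54 and 8.39 CPM in SVEC4-10 (log2 fold change 0.78, edgeR adjusted p = 0.0319). That call was lost with any library left out other than SVEC4-10 replicate 2, and it passed under 7 of 14 alternatives. Map3k7, the kinase TAK1 and the most abundant of the list, was at 60.7 ± 18.4 CPM in the 2H-11 libraries and 53.9 ± 10.4 CPM in the SVEC4-10 libraries. Smad2 and Smad3 did not pass, with log2 fold changes of -0.24 and 0.11. At an unadjusted p under 0.05 edgeR had 1 lower gene, Traf6 (log2 fold change -0.73), and DESeq2 called 0 lower.

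Among 13 genes listed as inhibitors, 11 were tested, with 3 higher and 2 lower (median log2 fold change -0.045). The share called was 45.5%, beside 36.2% of all genes tested. Dcn, decorin, a matrix proteoglycan that binds TGF-beta and the highest of the list by its mean over both lines, was at 12.5, 16.8 and 12.2 CPM in 2H-11 and at 361.3, 304 and 256.7 CPM in SVEC4-10, 23.8-fold lower in 2H-11 (edgeR adjusted p = 1.38e-11). In 2H-11 alone Tgif1, a repressor that binds Smads, was the highest of the list at 75.0 ± 14.8 CPM. Tgif2, its relative, was at 2.67 ± 0.595 CPM in the 2H-11 libraries and 0.354 ± 0.313 CPM in the SVEC4-10 libraries (log2 fold change 2.40, adjusted p = 0.0013). Its log2 fold change was 3.16 without SVEC4-10 replicate 3, and without 2H-11 replicate 1 it had too few counts to be tested. Pmepa1, an inhibitor that TGF-beta itself induces, was at 25.6 ± 5.19 CPM in the 2H-11 libraries and 41.5 ± 6.41 CPM in the SVEC4-10 libraries (log2 fold change -0.79, adjusted p = 0.00916), and its call was lost without 2H-11 replicate 2 (adjusted p = 0.0597). Nedd4l and Fst were the other higher genes of the list, though Fst, follistatin, is known as an inhibitor of activins and not of TGF-beta itself. Nedd4l lost its call without 2H-11 replicate 2 or SVEC4-10 replicate 2, and Fst lost it without 2H-11 replicate 3, SVEC4-10 replicate 1 or SVEC4-10 replicate 2. Skil, Smurf1 and Smurf2 did not pass.

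Genes that TGF-beta induces in many cell types moved both ways, with 6 of 19 tested genes higher and 5 lower in 2H-11 (median log2 fold change -0.28). The share called was 57.9%, beside 36.2% of all genes tested. Timp3, a matrix-bound inhibitor of metalloproteinases and the highest of the list by its mean over both lines, was at 436.1, 553.4 and 362.2 CPM in 2H-11 and at 3392, 3100.3 and 4132 CPM in SVEC4-10 (log2 fold change -3.07, edgeR adjusted p = 3.5e-10). In 2H-11 alone Acta2 (872.2 ± 237.6 CPM) and Col1a2 (549.0 ± 48.4 CPM) were above it. Ctgf, the matricellular protein now also called Ccn2, was at 24.2, 17.5 and 29.5 CPM in 2H-11 and at 150.8, 200.1 and 238.4 CPM in SVEC4-10 (log2 fold change -3.14, adjusted p = 8.83e-09). Tgm2, a transglutaminase that crosslinks latent complexes into the matrix, went the other way, at 42.0, 39.5 and 34.2 CPM in 2H-11 and at 3.27, 1.93 and 3.21 CPM in SVEC4-10 (log2 fold change 3.62, adjusted p = 4.28e-09). The libraries of the lines did not overlap for any of these 3 genes.

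The other higher genes of that list were Cdkn1a, Snai2, Col1a2, Snai1 and Col1a1, and Tsc22d1 and Bhlhe40 were among the other lower ones. The call for Col1a1 was lost without SVEC4-10 replicate 2 (adjusted p = 0.0548). Tagln and Acta2, contractile genes, did not pass, and neither did Fn1, Col3a1 and Lox. Acta2 was called lower without 2H-11 replicate 1 or SVEC4-10 replicate 1, Tagln without SVEC4-10 replicate 1, Fn1 without SVEC4-10 replicate 2 and Col3a1 without SVEC4-10 replicate 3.

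**Figure D4:**
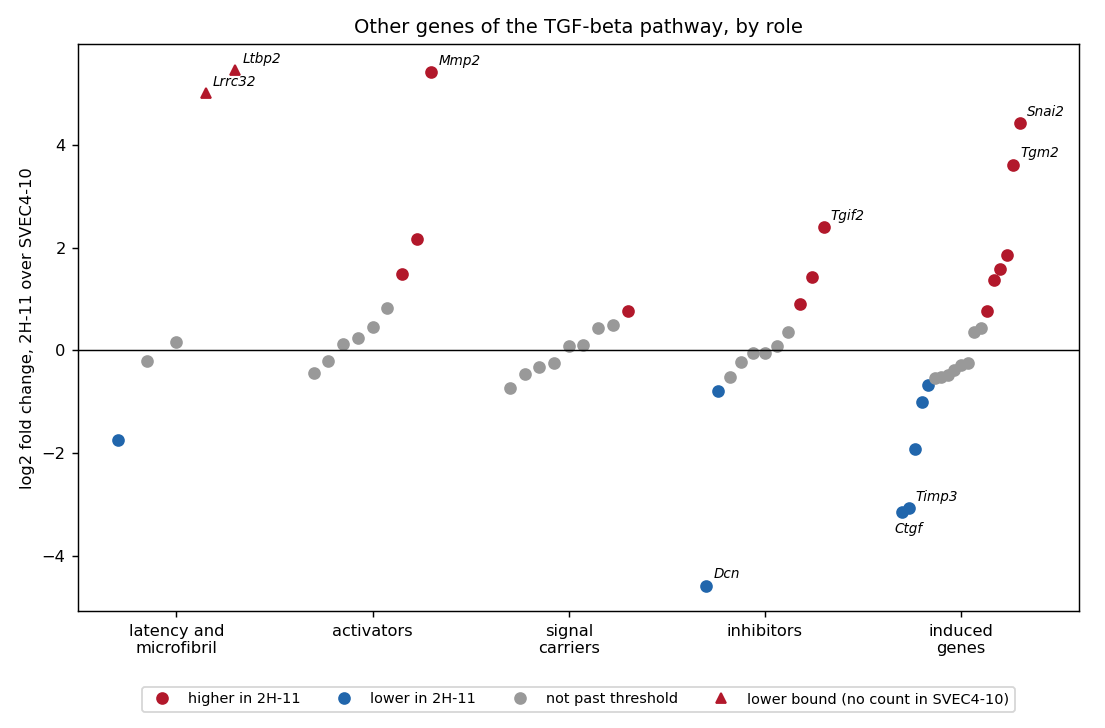
Log2 fold change of 2H-11 over SVEC4-10 (vertical axis) for the 53 tested genes of 5 pathway lists (horizontal axis), ordered by value within a list; circles are fitted values and triangles lower bounds for Ltbp2 and Lrrc32. Red points are higher, blue points lower and grey points not past the threshold, and most of the signal carriers are grey.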

How the data were processed

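Direct RNA libraries of 3 samples per line were made from 1 ug of total RNA with the kit SQK-RNA002, per the labels' protocols. Builds mm10 and GRCm38 are named in the submitters' processing notes, and no aligner, counter, annotation or strand setting is given in the sources used here. Deposited by the authors were raw read counts per gene and the same counts as CPM, and 13 broken lines without a gene were left out. CPM recomputed from the counts differed from the deposited CPM by at most 4.84e-06.

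Counts were tested with edgeR 4.0.16 in R 4.3.3, with filterByExpr (minimum count 10, minimum total 15), TMM scaling and line as the only term. The limit that 0 counts allow was 3 counts over a line's total, giving 0.196 CPM in 2H-11, and in SVEC4-10 it was 0.121 CPM. Libraries of a line differed by more than sampling noise, so none was counted as a repeat. Gene positions and lengths were read from GENCODE M21 (GRCm38), where 22022 of 22036 Ensembl identifiers were found, and promoters from RefSeq.

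The genes and lists were chosen with earlier results of these data known. From each pathway list, the 3 genes with the smallest p among those past the threshold and the most abundant gene were to be given with values, the rest of the called genes by name. Values of Acta2, Acvrl1, Col1a2, Itgb3, Itgb6, Itgb8, Ltbp3, Nrros, Smad2, Smad3, Tgif1 and Traf6, and of the marker Krt19, were added after they were seen. A result of the pathway lists is not reported here. The nearest genes were to be found for the called genes with the largest rise and the largest decrease that had counts in all libraries. Alternatives were a replicate block, DESeq2 1.42.0, other size factors, library totals alone, other filters, Ensembl identifiers only, equal depth by thinning to the smallest library, and each library left out in turn. Tables and figures used Python 3.11.15 with pandas 2.3.3 and matplotlib 3.10.9.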

Additional observations from a re-analysis of the deposited data

How the results depend on the processing

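Tgfbi, Ltbp1, Eng, Tgfb2 and Tgfb3 kept their direction and passed the threshold under all 14 alternatives, and Tgfbr1, Tgfbr3 and Smad7 passed under none. Of the values of single named genes under the alternatives, 411 kept their direction and their side of the threshold, 25 no longer passed and 3 turned sign. The 3 were Smad7 without 2H-11 replicate 2 (log2 fold change 0.025) and without SVEC4-10 replicate 3 (0.044), and Tgfbr3 without SVEC4-10 replicate 3 (-0.076), none of which passed. Over the libraries left out, Smad7 ran from -0.42 to 0.044 and Tgfbr3 from -0.076 to 0.31. On Ensembl identifiers only, 1657 genes were higher in 2H-11 instead of 2645, a smaller set of genes by construction. With 20 counts in 3 libraries, 0 latency genes were higher, 0 lower and 1 inhibitor was higher, since Ltbp2, Lrrc32, Ltbp4, Fst and Tgif2 were no longer tested. With thinning to the smallest library, 1 latency gene was higher and 0 lower, since Lrrc32 and Ltbp4 were no longer tested, and 0 signal carriers were higher, Smad4 no longer passing. With Ensembl identifiers only, 2 signal carriers were higher, Tab1 being added. With no filter, 1 activator (Itgb8) and 8 induced genes were lower, and Itgb3 and Acvrl1 were added as higher, these 3 named genes being untested with the filter on all libraries. The cause was not tested for Smad4, Tab1 and the induced genes. Leaving out each library gave 2 to 3 of the 10 genes lower, 0 to 1 latency genes lower, 0 to 2 signal carriers higher and 0 to 1 lower, 1 to 3 inhibitors higher and 1 to 2 lower. The receptor Acvrl1 was counted with the signal carriers there. The difference in the Tgfb1 share ran from -0.389 to 0.226 percentage points over the libraries left out and was 0.00536 with counts per kb, so its sign is not determined at this depth. That in the Tgfb3 share ran from -15.9 to -8.43.

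Deviations from the mean of a line correlated at -0.07, 0.05 and -0.004 between same-numbered libraries of the lines. Between unlike-numbered libraries they correlated at -0.12 to 0.13. With 3 libraries per line, such values cannot settle whether a shared number marks a shared batch. A replicate block gave 2491 genes higher and 1970 lower, against 2645 and 2133 and left the calls of the 10 genes as they were.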
